A study of Mus musculus with 33 samples.

Results

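Lysosomes are acidic compartments in which microglia, the resident macrophages of the brain, break down myelin, synapses, dead cells and protein deposits that they have engulfed. RNA levels are described here for 38 lysosomal genes, listed by name without the cathepsins, of the 54146 genes in the deposited counts. By function they were split into 14 glycan-degrading enzymes, 8 genes of lipid handling, 6 genes of the proton pump, 6 membrane proteins, 2 genes kept apart (progranulin and the peptidase Tpp1) and 2 transcription factors of the TFEB family. The list was made by name and function and not by a cut on measured values, but with earlier results of these data known. All 38 were found in the counts, and 37 passed the filter on low counts in every comparison. Atp6v0d2 did not pass it in any.

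RNA was sequenced from 33 libraries of microglia, sorted from the brains of C57BL/6 mice, all labelled female. The WT and germline IRF8KO groups had 4 libraries each at 3 months of age and 3 each at 9 months. The older age also included 3 libraries each of 5xFAD and 5xFAD/IRF8KO mice. 5xFAD is an amyloid model of Alzheimer's disease whose transgenes are driven by a neuronal promoter. None of these 6 groups received a treatment. Batf3KO mice and a WT group of their own experiment were untreated and aged 3 months (3 libraries each). In the conditional knockout, 3 libraries titled WT carried the genotype label IRF8flox and are called flox here. A further 4 were labelled IRF8floxCx3cr1CreERT2 and are called Cre. Both conditional groups received tamoxifen for 5 days from P12 and were profiled at 3 months. The design text adds a Rosa26LSL-EYFP reporter and a sort for YFP-positive microglia, and Cx3cr1 is also active in other macrophages. The labels speak of each brain but name no animals, so p-values measure the spread between libraries. Each knockout was compared with the control group of its own experiment.

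IRF8 is a transcription factor of the myeloid lineage that binds DNA with partners such as the ETS factor PU.1, while BATF3, a leucine zipper protein, is its partner in dendritic cells. Most lysosomal hydrolases are made in the endoplasmic reticulum, tagged with mannose 6-phosphate and delivered to the lysosome, where a proton pump, the V-ATPase, keeps the pH low. TFEB and TFE3 bind a palindromic E-box called the CLEAR element near many lysosomal genes and raise their transcription when they enter the nucleus. Loss of single members of the list causes lysosomal storage diseases, many of which affect the brain.

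Promoter windows from RefSeq (GRCm38.p6, 250 bases before to 50 bases after the transcription start) were matched to 32 of the 38 genes. No window is given here for Asah1, Galns, Npc1, Atp6v0d2, Atp6v1b2 or Atp6v1h. A gene was counted if any of its windows matched, with 37 windows for the 32 genes and 32851 for all 27025 genes. The members are all protein-coding, and the genes they are set against were not limited to that type. The E-box CACGTG, searched on both strands, was present in 10 of the 32 genes (31.25%) and in 8.09% of the 27025 genes. Its longer form TCACGTGA, which contains CACGTG and is the core of the CLEAR element, was present in 5 of the 32 (15.6%) and in 1.12% of all genes. The 5 were Atp6v0d1, Atp6v1a, Cln3, Gla and Mcoln1. The composite site of ETS and IRF factors, searched as GGAA and GAAA with any 2 bases between them, was present in Cd68 and Scarb2 (6.25% of the 32, 3.16% of all genes). The core of the interferon-stimulated response element, GAAA and GAAA with any 2 bases between them, was present in Lamp1 only (3.125%, against 3.99% of all genes). A match describes these letters and is no evidence of binding.

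The windows below belong to genes on which the later results turn. Cd68 and Scarb2 carry the ETS and IRF letters, Atp6v1a and Atp6v0d1 the CLEAR core, and Lamp1 and Naglu the shorter E-box. Capitals mark the motif named in each line, and a motif on the opposite strand appears as its reverse complement. Offsets count from the transcription start.
Cd68, chr11:69666121-69666420, minus strand, ETS and IRF site on the opposite strand at 24: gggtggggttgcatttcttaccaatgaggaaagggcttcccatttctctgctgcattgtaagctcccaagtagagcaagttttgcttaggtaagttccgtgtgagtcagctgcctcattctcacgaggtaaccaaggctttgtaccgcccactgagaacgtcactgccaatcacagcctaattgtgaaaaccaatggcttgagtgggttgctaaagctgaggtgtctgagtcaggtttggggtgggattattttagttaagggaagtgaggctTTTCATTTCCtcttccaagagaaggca
Scarb2, chr5:92505608-92505907, minus strand, ETS and IRF site on the opposite strand at -114: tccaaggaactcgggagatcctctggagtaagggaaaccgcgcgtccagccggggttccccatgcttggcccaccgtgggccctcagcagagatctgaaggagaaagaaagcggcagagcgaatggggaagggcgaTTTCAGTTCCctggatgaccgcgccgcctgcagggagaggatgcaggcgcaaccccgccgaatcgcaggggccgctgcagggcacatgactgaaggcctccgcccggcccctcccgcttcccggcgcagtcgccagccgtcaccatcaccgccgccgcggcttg
Atp6v1a, chr16:44139210-44139509, minus strand, TCACGTGA at -132: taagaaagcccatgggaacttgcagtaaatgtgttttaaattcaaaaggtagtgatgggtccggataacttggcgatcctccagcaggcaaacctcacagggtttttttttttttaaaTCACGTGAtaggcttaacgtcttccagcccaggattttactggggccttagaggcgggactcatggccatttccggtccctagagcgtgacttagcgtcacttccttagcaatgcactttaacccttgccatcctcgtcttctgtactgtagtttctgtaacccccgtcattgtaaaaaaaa
Atp6v0d1, chr8:105566015-105566314, minus strand, TCACGTGA at -4: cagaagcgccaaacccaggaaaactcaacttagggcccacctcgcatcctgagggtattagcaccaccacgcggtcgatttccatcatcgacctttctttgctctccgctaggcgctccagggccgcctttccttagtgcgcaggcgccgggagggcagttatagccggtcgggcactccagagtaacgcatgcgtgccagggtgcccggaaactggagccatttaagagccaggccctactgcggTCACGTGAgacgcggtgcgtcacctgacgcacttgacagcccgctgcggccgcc
Lamp1, chr8:13158911-13159210, plus strand, CACGTG at -61, -45, -28 and -15: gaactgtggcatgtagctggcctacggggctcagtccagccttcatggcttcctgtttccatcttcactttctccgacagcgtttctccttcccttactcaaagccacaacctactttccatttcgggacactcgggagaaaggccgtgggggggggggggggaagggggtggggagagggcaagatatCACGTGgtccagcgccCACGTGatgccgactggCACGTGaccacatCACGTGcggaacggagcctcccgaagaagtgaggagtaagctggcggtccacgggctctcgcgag
Naglu, chr11:101069844-101070143, plus strand, CACGTG at -73: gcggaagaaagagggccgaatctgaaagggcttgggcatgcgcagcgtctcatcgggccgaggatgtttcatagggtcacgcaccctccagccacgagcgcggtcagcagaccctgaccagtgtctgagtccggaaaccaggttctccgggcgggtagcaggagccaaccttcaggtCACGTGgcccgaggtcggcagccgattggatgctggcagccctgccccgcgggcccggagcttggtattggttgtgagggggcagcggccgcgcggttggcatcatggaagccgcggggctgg

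Irf8 was lower in every germline IRF8KO library than in every control library of its age. In the conditional knockout, Irf8 in the library labelled Cre replicate 1 was at 1134 CPM (counts scaled to a library total of 1000000, with TMM factors within a model), against its label and inside the flox range of 972 to 1244. The other 3 Cre libraries were at 367 to 521 CPM. Batf3 went the other way, at 4.32, 4.57 and 1.93 CPM in flox and 1.32, 34.7, 67.6 and 47.5 CPM in Cre replicates 1 to 4. At 3 months it was at 0 to 1.72 CPM in germline IRF8KO and 16.85 to 64.25 CPM in WT. By Batf3, flox thus lay below every WT library, and Cre replicates 2 to 4 above every germline IRF8KO library. The labels do not account for this, and its reason was not tested. Batf3 was at 0.44 to 0.524 CPM in Batf3KO and 23.5 to 26.9 CPM in its WT group. Depth ranged from 605376 counts in genes (WT replicate 3 at 9 months) to 18357762. All 12 defining markers of homeostatic microglia had counts in 9 of the 10 groups, and 11 of 12 in 5xFAD/IRF8KO. Their summed share of gene counts was 6.83% to 6.96% in WT, 5.69% to 6.43% in 5xFAD, 0.38% to 0.916% in IRF8KO and 0.71% to 0.885% in 5xFAD/IRF8KO at 9 months, while at 3 months WT libraries had between 1.24% and 2.30% and IRF8KO libraries between 0.635% and 1.16%. A list of 12 neutrophil markers took 6.44% to 9.02% in IRF8KO and 8.20% to 14.5% in 5xFAD/IRF8KO, with all 12 detected, and at most 0.00033% in WT and 5xFAD at 9 months, with 4 and 8 detected. Ngp, Ltf, Camp and Mpo were among those at 0 in WT, and S100a9 and Elane in 5xFAD. Red blood cell, monocyte, oligodendrocyte, astrocyte, neuron, border macrophage and lymphocyte markers were also higher in both groups without Irf8 at that age. In IRF8KO, 1 monocyte marker (-4.72 on the log2 scale) and 1 border macrophage marker (-5.77) went the other way without being called. Of 4 lymphocyte markers tested there, 2 were called higher. The summed share of 6 endothelial markers was lower there, at 0.00333% to 0.0107% in IRF8KO and 0.0137% to 0.0245% in WT, although 4 of the 6 were called higher in IRF8KO and 3 of the 6 on the 5xFAD background. Reads assigned to genes were 74.7% to 77.3% in WT libraries and 48.6% to 53.4% in IRF8KO libraries at 9 months, while 5xFAD libraries had between 77.3% and 78.6% and those of the combined genotype between 56.8% and 72.03%. The part of this in the results was not tested. The neutrophil markers at 3 months made up between 0.853% and 5.38% of WT libraries and between 7.60% and 16.5% of IRF8KO libraries. The labels give every animal as female, but Y-linked transcripts without Xist, at a minimum of 10 CPM, were found in 13 libraries, among them all 3 WT libraries and 1 of 3 5xFAD libraries at 9 months. Xist alone was found in 16 libraries, neither in 1 (WT at 3 months) and both in 3, which were 1 IRF8KO and 2 5xFAD/IRF8KO libraries at 9 months. Gla, Ids, Lamp2, Atp6ap1 and Tfe3 lie on the X chromosome.

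Across the 10 groups, the 38 genes together took between 0.729% ± 0.119 of gene counts in IRF8KO at 9 months (SD, n = 3) and 2.76% ± 0.00815 in WT of the Batf3KO experiment (n = 3). The WT groups themselves spanned a wide range. The share was 0.848% ± 0.184 in WT at 3 months (n = 4), 2.03% ± 0.0938 in WT at 9 months, 1.34% ± 0.121 in flox and 2.76% in WT of the Batf3KO experiment. Group, age and experiment cannot be told apart across these controls. The remaining groups had 0.814% ± 0.148 (IRF8KO at 3 months, n = 4), 2.06% ± 0.114 (5xFAD), 0.813% ± 0.0577 (5xFAD/IRF8KO), 2.58% ± 0.105 (Batf3KO) and 1.46% ± 0.144 (Cre, n = 4).

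**Figure D1:**
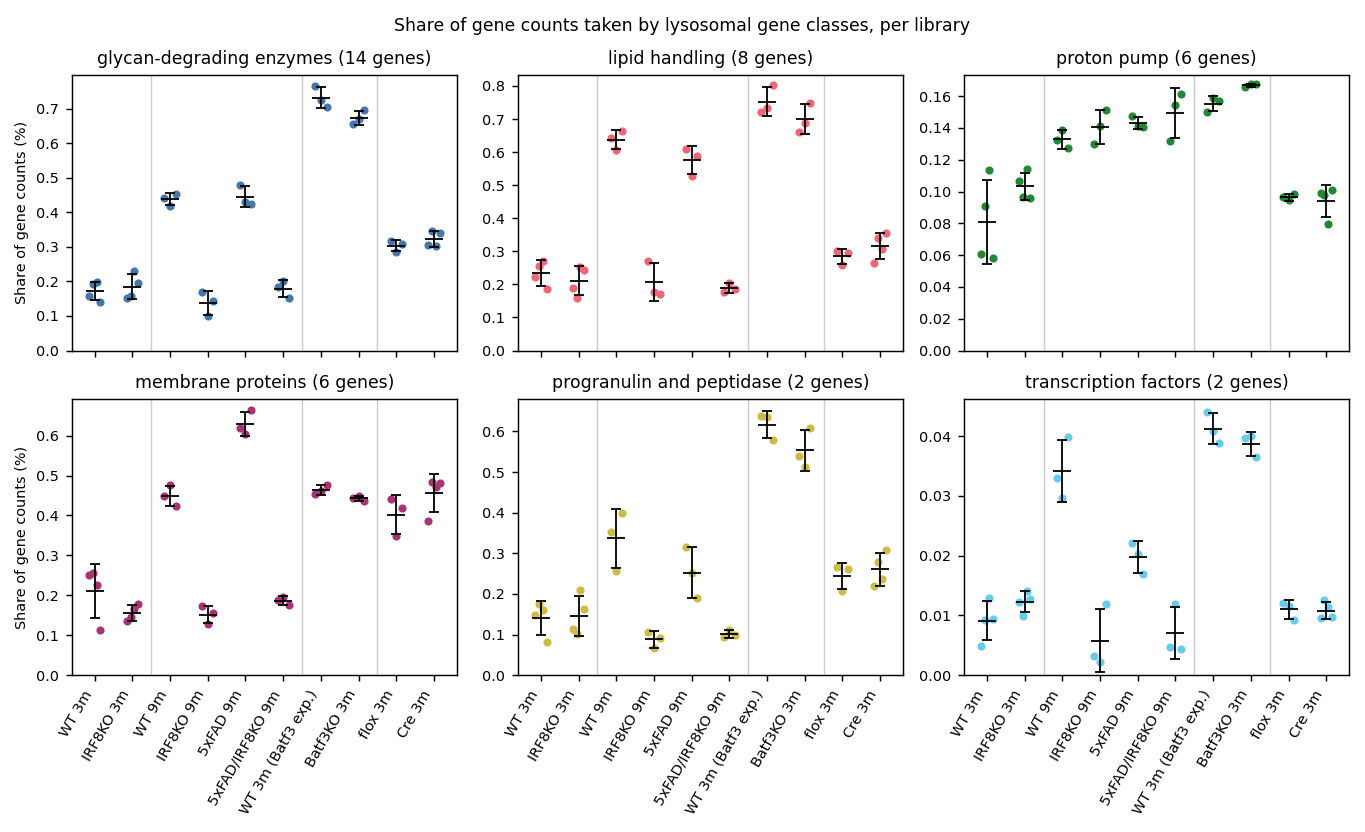
Share of gene counts (%) taken by each functional class in each of the 33 libraries, with the mean and SD of each group; grey lines separate experiments. At 9 months the glycan, lipid, membrane, progranulin and transcription factor classes sit lower in both groups without Irf8, while the proton pump class lies between 0.127% and 0.162% in all 4 groups of that age.

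Per kb of exon, so that genes can be compared, Cd68, Psap, Grn and Hexa were the leading members in most groups. In WT at 9 months Psap had 872 ± 119 CPM per kb, Cd68 825 ± 146, Grn 541 ± 121, Hexa 454 ± 59.98 and Lamp1 313 ± 53.1 (SD, n = 3 each, scaled over all 33 libraries). Psap and Cd68 differed by less than their SDs. Psap encodes prosaposin, the precursor of the saposins that help enzymes reach sphingolipids, and Cd68 encodes a heavily glycosylated protein of macrophage lysosomes. In 5xFAD the order was headed by Cd68 with 2426 ± 109 CPM per kb, followed by Hexa (871 ± 61.1) and Psap (704 ± 150), which overlapped within their SDs. In IRF8KO at 9 months the leading members lay closer together, with Psap at 347 ± 167, Cd68 at 225 ± 83.3, Atp6ap1 at 211 ± 41.5 and Grn at 206 ± 54.7 CPM per kb, all within an SD of one another. At the low end in WT at 9 months were Gla (1.04 CPM per kb), Sgsh (3.52), Atp6v1h (6.31) and Npc1 (7.14), and Atp6v0d2 was at 0 counts.

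Gene positions are those of GENCODE M21 on GRCm38. Cd68 lies at chr11:69664213-69666153 and Atp6v1a at chr16:44085402-44139705, both on the minus strand. Naglu (chr11:101070012-101077672), Grn (chr11:102430315-102437048) and Lamp1 (chr8:13159161-13175338) are on the plus strand. All 5 are protein-coding.

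The first comparison asked how the germline loss of Irf8 changed lysosomal genes at 9 months. Some hydrolases of glycans and lipids, Cd68, Lamp1, Lamp2 and progranulin were lower, while 2 subunits of the proton pump and 2 weakly expressed hydrolases were higher. Of 37 members tested, 13 fell and 4 rose in IRF8KO (adjusted p under 0.05, edgeR's quasi-likelihood test with Benjamini-Hochberg adjustment over all genes). In the same test 28.3% of 14604 genes were called, 8.68% lower and 19.6% higher. The median log2 fold change was -0.87 over the members and 0.25 over all genes. Of the 38 genes, 20 lay lower and 5 higher in every IRF8KO library than in any WT library, against 21.9% lower and 27.4% higher over all genes tested. These libraries also differ in the markers of neutrophils and homeostatic microglia given above. The part of other cells in these differences was not tested, and in sorted bulk samples fewer microglia and less RNA per cell cannot be told apart. With the 9 lists of markers of other cells left out before scaling, 17 members were called, 16 of them the same. That run removed only the listed genes. RNA of other cells in the remaining genes stayed, so the run cannot show what part those cells had.

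Among the 14 glycan-degrading enzymes, 4 fell and 2 rose. Naglu, which removes N-acetylglucosamine from heparan sulfate, had CPM values of 297, 240 and 269 in WT libraries and of 49.4, 21.1 and 56.7 in IRF8KO libraries. The groups were far apart (log2 fold change -2.66, SE 0.355, adjusted p 0.000187 in edgeR). Idua, the iduronidase of heparan and dermatan sulfate, had CPM values of 108, 68.0 and 102 in WT libraries and of 18.2, 24.7 and 23.2 in IRF8KO libraries, again without overlap (log2 fold change -2.07, adjusted p 0.00735). Hexa, the alpha subunit of beta-hexosaminidase, fell from 1050 ± 136 to 333 ± 125 CPM (SD, n = 3 each; -1.66, adjusted p 0.000694), and Man2b1, the lysosomal alpha-mannosidase, from 1048 ± 97.5 to 297 ± 115 CPM (-1.82, adjusted p 0.00265). Hexa and Idua share exon sequence with genes on the opposite strand, whose reads cannot be told apart without strand. These 4 falls held under each alternative run.

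Both rises in that class were in weakly expressed genes. Gla, the alpha-galactosidase on the X chromosome, had CPM values of 3.53, 5.83 and 2.43 in WT libraries and of 28.4, 13.3 and 14.7 in IRF8KO libraries (2.23, adjusted p 0.0398). Galns, a sulfatase of keratan sulfate, had CPM values of 25.5, 26.7 and 15.8 in WT libraries and of 48.1, 96.1 and 47.7 in IRF8KO libraries (1.48, adjusted p 0.0482). Neither overlapped between groups, but the Galns call was lost without any single library of the 6 (0.95 to 1.59). The Gla call was lost without WT replicate 1, 2 or 3 (2.02, 2.60 and 1.91) and without IRF8KO replicate 1 or 3 (1.69 and 2.26), and with a replicate block (adjusted p 0.0866). Of the 8 not called, Gaa, which degrades glycogen, was at -1.57 (adjusted p 0.0514), Sgsh had 0 counts in IRF8KO replicates 1 and 2 and 12.95 CPM in replicate 3, and Glb1 and Neu1 were at -0.18 and -0.14.

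Among the 8 genes of lipid handling, 4 fell and none rose. Asah1, acid ceramidase, fell from 811 ± 144 to 270 ± 40.2 CPM (SD, n = 3 each; -1.59, adjusted p 0.000325). Psap fell from 2778 ± 408 to 985 ± 462 CPM (-1.50, adjusted p 0.0102). Ppt1, which removes palmitate from proteins, was lower by 0.93 (adjusted p 0.0282), and Npc2, which hands cholesterol to Npc1, by 0.73 (adjusted p 0.0356). The last 2 calls were the weakest of the class. Ppt1 lost its call without WT replicate 1 or 2 (-1.05 and -0.88), and Npc2 without WT replicate 1 or 2 (-0.83 and -0.61) or IRF8KO replicate 3 (-0.73). Smpd1, acid sphingomyelinase, was level between the groups at 91.4 ± 2.76 and 94.0 ± 41.0 CPM, with a log2 fold change of 0.04.

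No gene of the proton pump fell. Atp6v1a, the catalytic subunit of the cytosolic V1 sector, had CPM values of 78.6, 64.1 and 85.1 in WT libraries and of 174, 339 and 273 in IRF8KO libraries. All IRF8KO libraries lay above all WT libraries, with a log2 fold change of 1.79 (SE 0.28, adjusted p 0.000577). Atp6v1b2, its partner B subunit, rose from 171 ± 18.5 to 357 ± 47.0 CPM (1.06, adjusted p 0.00459). Both rises held under each alternative run. Atp6v0d1, the d subunit of the membrane sector, had CPM values of 85.2, 90.3 and 88.8 in WT libraries and of 102, 135 and 111 in IRF8KO libraries, a difference of 0.40 that did not pass the test (adjusted p 0.203), and Atp6ap1, an accessory subunit, was at -0.02. As a class the pump took 0.133% ± 0.00583 of gene counts in WT and 0.141% ± 0.0107 in IRF8KO, whereas the lipid class took 0.637% ± 0.0290 and 0.206% ± 0.0569.

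Of 6 membrane proteins, 3 fell and none rose. Cd68 had CPM values of 1249, 1372 and 982 in WT libraries and of 305, 180 and 394 in IRF8KO libraries, without overlap (-2.04, SE 0.283, adjusted p 0.00025). Lamp1, a structural protein of the lysosomal membrane, had CPM values of 1086, 1035 and 789 in WT libraries and of 644, 606 and 387 in IRF8KO libraries. The difference of -0.83 passed the test (adjusted p 0.0213), but not without WT replicate 1 (-0.87) or 2 (-0.79). Lamp2, its relative and a receptor of chaperone-mediated autophagy, fell by 0.94 (adjusted p 0.00705). Cln3, the channel Mcoln1 and the receptor Scarb2, which carries glucocerebrosidase to lysosomes, were at -0.94, -0.87 and -0.78 without passing the test.

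Grn encodes progranulin, a secreted and lysosomal protein whose loss causes frontotemporal dementia. It had CPM values of 2526, 1595 and 2436 in WT libraries and of 953, 618 and 648 in IRF8KO libraries, a fall of 1.56 on the log2 scale (adjusted p 0.00293). Tpp1, a lysosomal peptidase, went from 530 ± 56.0 to 195 ± 13.9 CPM (SD, n = 3 each), with a log2 fold change of -1.44 (adjusted p 0.000774). The transcription factors were uneven within the knockout group. Tfeb had CPM values of 60.02, 36.9 and 68.1 in WT libraries and of 29.6, 0 and 9.48 in IRF8KO libraries (-2.07). Tfe3 had CPM values of 232, 204 and 225 in WT libraries and of 4.46, 28.3 and 99.7 in IRF8KO libraries (-2.31, adjusted p 0.116). For both genes the knockout range ended below the WT range, yet neither passed the test.

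**Figure D2:**
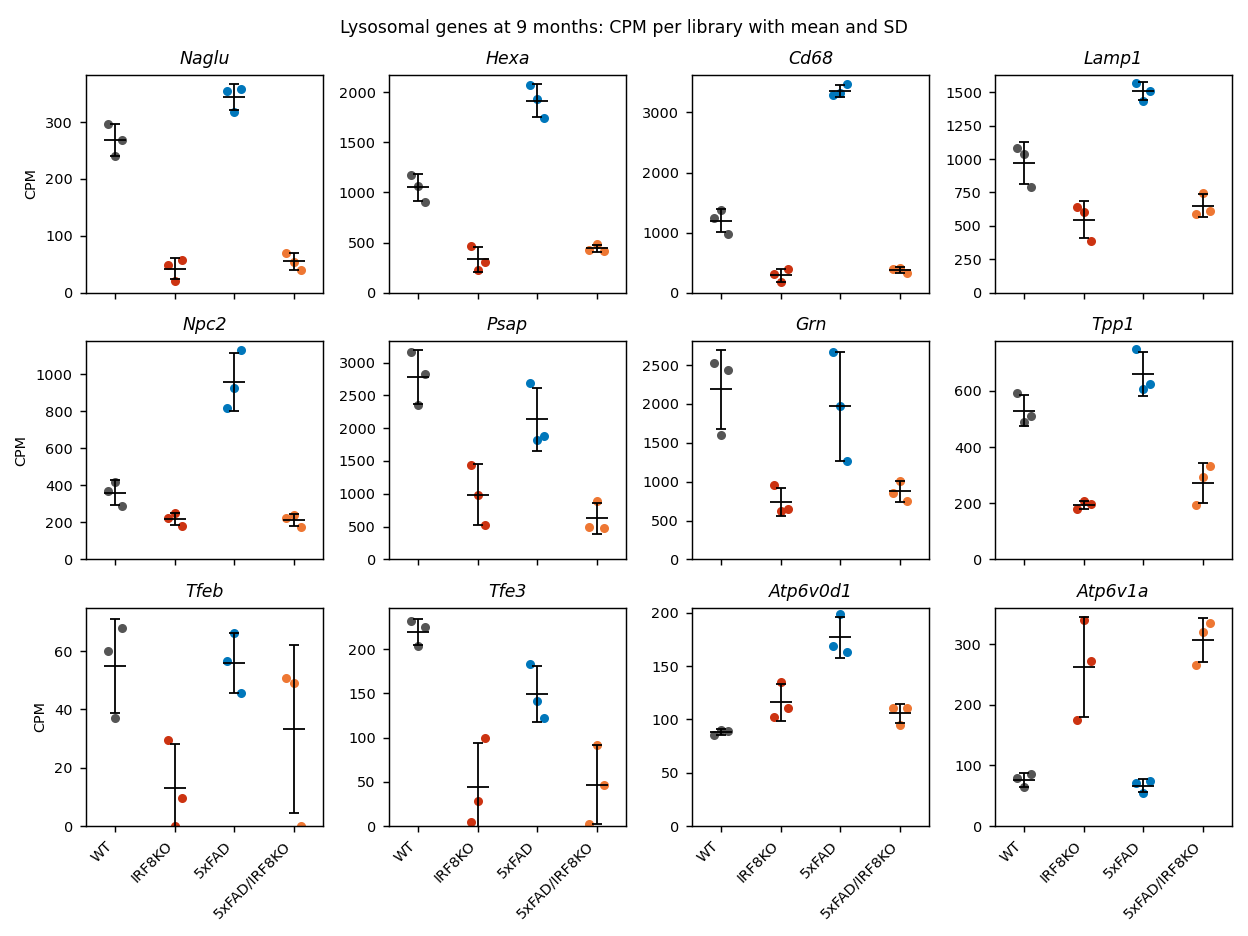
CPM per library of 12 lysosomal genes in the 4 groups aged 9 months, with the mean and SD (n = 3 each; SD bars that would pass below 0 end at the axis). Cd68, Npc2, Lamp1 and Hexa are highest in 5xFAD and low in both groups without Irf8, while Atp6v1a is high in those 2 groups, between 174 and 339 CPM.

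At 9 months the amyloid model was compared with WT. Only 3 of 37 members were called, all higher in 5xFAD, against 1.99% of 14604 genes (1.81% higher and 0.178% lower). They encode a macrophage lysosomal protein, a carrier of cholesterol and a subunit of the proton pump. Cd68 had 3291, 3318 and 3466 CPM in 5xFAD and 982 to 1372 CPM in WT (1.48, SE 0.278, adjusted p 0.0234). Npc2 had CPM values of 820, 926 and 1131 in 5xFAD libraries and of 371, 420 and 288 in WT libraries (1.41, adjusted p 0.0154). Atp6v0d1 had 169, 199 and 164 CPM in 5xFAD and 85.2 to 90.3 CPM in WT (1.01, adjusted p 0.0413). All 3 ranges were apart. They were among 19 members that lay higher in every 5xFAD library, while 3 lay lower, against 23% higher and 15.3% lower over all genes tested. Another of the 19 was Hexa (1916 ± 166 against 1050 ± 136 CPM; SD, n = 3 each; 0.87, adjusted p 0.137), and so was Lamp1 (1572, 1438 and 1510 CPM in 5xFAD; 0.63). Grn was level (-0.15), with 2664, 1976 and 1267 CPM in 5xFAD, and so was Tfeb (0.03), with 56.5, 66.1 and 45.6 CPM. Tfe3 had 184, 142 and 123 CPM in 5xFAD (-0.56).

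These calls were close to the threshold. Leaving out any one of the 6 libraries ended the calls of Cd68 (1.33 to 1.60) and Atp6v0d1 (0.93 to 1.04), and that of Npc2 was lost without any one library other than 5xFAD replicate 1 (1.24 to 1.55). When only WT and 5xFAD were fitted, 19 members were called (12 higher, 7 lower), as were 43.5% of genes. With a replicate block 1 member was called (0.719% of genes), and 1 with Y-linked transcripts as a term (0.349% of genes). Those transcripts had 275 to 307 CPM in the WT libraries and 0, 0 and 156 CPM in 5xFAD replicates 1 to 3. The membrane class took 0.449% ± 0.0256 of gene counts in WT and 0.630% ± 0.0308 in 5xFAD, without overlap, while the glycan class took 0.437% ± 0.0175 and 0.444% ± 0.0303 (SD, n = 3 each).

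Loss of Irf8 on the 5xFAD background was compared with 5xFAD alone. Here 15 members fell and 1 rose in 5xFAD/IRF8KO, against 9.72% of 14604 genes lower and 18% higher (27.8% in all). The median was -0.82 over the members and 0.24 over all genes, and 23 members lay lower and 2 higher in every 5xFAD/IRF8KO library, against 23.2% lower and 25.4% higher over all genes tested. Of the 13 members that fell without 5xFAD and the 15 that fell on it, 11 were shared (84.6% and 73.3%). Over all genes, 8.68% and 9.72% were called lower in these tests, and how many were shared is not given here. The 2 comparisons share no library, but they were fitted in 1 model. Both groups without Irf8 also held the markers of other cells given above. The 3 members higher in 5xFAD, Cd68, Npc2 and Atp6v0d1, were all among the 15, but those comparisons share the 5xFAD libraries. With the presence of Y-linked transcripts as a term, an alternative chosen after seeing the data, 10 members were called, as were 17.5% of genes. Those transcripts were present in 1 of 3 5xFAD libraries and in 3 of 3 5xFAD/IRF8KO libraries.

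Cd68 showed the largest fall among the called members. Its CPM was 398, 416 and 321 in the combined genotype, a range that overlaps that of IRF8KO alone (180 to 394) and lies below every 5xFAD library (-3.15, SE 0.295, adjusted p 1.59e-05). Naglu had CPM values of 355, 318 and 359 in 5xFAD libraries and of 70.7, 54.4 and 40.4 in 5xFAD/IRF8KO libraries (-2.64, adjusted p 0.0002). Npc1, the membrane protein that exports cholesterol from lysosomes, had CPM values of 75.7, 68.6 and 96.8 in 5xFAD libraries and of 30.5, 11.7 and 2.78 in 5xFAD/IRF8KO libraries (-2.42, adjusted p 0.0174), a call lost without 5xFAD replicate 3 (-2.34) or 5xFAD/IRF8KO replicate 2 (-2.28). Npc2 fell by 2.17 (adjusted p 5.26e-05) and Hexa by 2.11 (adjusted p 0.000138). For all 3, every 5xFAD/IRF8KO library lay below every 5xFAD library. Lamp1 had 587, 748 and 615 CPM (-1.21, adjusted p 0.00297), and Grn had 860, 1014 and 746 CPM (-1.17, adjusted p 0.014), a call lost without 5xFAD replicate 1 (-0.90).

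In the lipid class 6 of 8 fell, with Psap at -1.78, Ppt1 at -1.50, Smpd1 at -1.43 and Asah1 at -0.97 beside Npc1 and Npc2. The glycan class had 3 falls of 14 (Naglu, Hexa and Idua, the last at -1.45), the membrane class 3 of 6 (Cd68, Lamp1 and Scarb2 at -1.51), and Tpp1 fell by 1.28. Idua lost its call without any one library other than 5xFAD/IRF8KO replicate 2 (-1.65 to -1.10). Smpd1 lost its call without 5xFAD replicate 1 or 2 (-1.38 and -1.32) and without 5xFAD/IRF8KO replicate 1 or 3 (-1.11 and -1.27), and Scarb2 without 5xFAD replicate 1 or 3 (-1.47 and -1.50) and without 5xFAD/IRF8KO replicate 2 or 3 (-1.29 and -1.36). The proton pump was split. Atp6v1a had CPM values of 70.9, 54.8 and 74.0 in 5xFAD libraries and of 266, 320 and 335 in 5xFAD/IRF8KO libraries (2.21, adjusted p 0.000141). Atp6v0d1 fell, from 164 to 199 CPM in 5xFAD to 111, 95.1 and 111 CPM in the combined genotype (-0.75, adjusted p 0.0253), and lost its call without 5xFAD replicate 1 (-0.78) or 2 (-0.67) or 5xFAD/IRF8KO replicate 2 (-0.69). Tfeb had 50.9, 49.2 and 0.185 CPM and Tfe3 2.40, 91.7 and 46.6 CPM in 5xFAD/IRF8KO, so that 1 library stood apart in each, and neither was called (-0.75 and -1.67).

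Atp6v0d2, a d subunit found in osteoclasts and some macrophages, was listed with 213 counts (18.2 CPM before TMM scaling) in 5xFAD/IRF8KO replicate 3. It had 0 counts in replicates 1 and 2 of that group. In the other 30 libraries it had 0 to 4 counts. A value seen in 1 library of a group was not tested.

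Within mice lacking Irf8, no member was called between 5xFAD/IRF8KO and IRF8KO, against 0.164% of genes in edgeR's test (0.123% higher and 0.0411% lower; 1853 genes had an unadjusted p under 0.05). Members ranged from -1.13 (Npc1) to 1.36 (Tfeb), and DESeq2 called Asah1 (1.03 in edgeR, adjusted p 0.106). Asah1 had CPM values of 246, 316 and 247 without the transgenes and of 620, 433 and 602 with them, without overlap. Neu1 and Lamp2 also lay higher in every 5xFAD/IRF8KO library and no member lay lower, against 5.45% higher and 5.55% lower over all genes tested. The interaction of 5xFAD and IRF8KO also gave no call among members (0.438% of genes, 0.192% higher and 0.247% lower, with 2146 at an unadjusted p under 0.05). Its lowest adjusted p values among members were those of Npc2 (-1.44, adjusted p 0.0763) and Atp6v0d1 (-1.14, adjusted p 0.12), and DESeq2 called both. For Cd68 the interaction was -1.11 and for Lamp1 -0.38.

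At 3 months, where WT libraries also held neutrophil markers, Cd68 alone was called. It was 1 of 37 members, while 7.39% of 13121 genes were called (4.15% higher and 3.24% lower). Cd68 had CPM values of 1842, 1388, 871 and 479 in WT libraries and of 258, 366, 376 and 458 in IRF8KO libraries. The groups did not overlap, but the lowest WT library lay close to the highest IRF8KO library (-1.65, SE 0.426, adjusted p 0.0363). Omitting WT replicate 1 (-1.28) or 2 (-1.54) ended the call, as did omitting IRF8KO replicate 1 (-1.51), 2 (-1.69), 3 (-1.66) or 4 (-1.77) or adding a replicate block (-1.51, adjusted p 0.081). When all 33 libraries shared a model 7 members were called, as were 17.8% of genes, and DESeq2 called 3 members and 15.7% of genes. The median log2 fold change over members was 0.09, against -0.02 over all genes. Cd68 was the 1 member lower at both ages. Outside the call, Man2b1 and Atp6v1b2 lay higher in every IRF8KO library, as did 10.9% of all genes tested. Atp6v1b2 had CPM values of 81.5, 102, 194 and 129 in WT and of 221, 277, 263 and 204 in IRF8KO (0.93, adjusted p 0.103).

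Lamp1, Grn, Atp6v0d1, Tfeb and Tfe3 overlapped between the groups at 3 months, and none of the 5 passed the test. Lamp1 CPM was 557, 671, 718 and 347 in WT libraries and 503, 490, 573 and 537 without Irf8 (-0.13). Grn CPM was 1576, 1652, 1245 and 701 in WT libraries and 896, 884, 1573 and 1247 without Irf8 (-0.17). WT replicate 4 was low for both, as it was for Cd68. Atp6v0d1 CPM was 67.3, 78.8, 92.6 and 48.5 in WT libraries and 72.1, 59.5, 83.5 and 76.3 without Irf8 (0.02). The 2 transcription factors, low in several IRF8KO libraries at 9 months, were not low here. Tfeb CPM was 16.2, 50.7, 36.7 and 22.5 in WT libraries and 29.1, 50.5, 45.6 and 29.4 without Irf8 (0.28). Tfe3 CPM was 41.5, 46.1, 81.96 and 79.97 in WT libraries and 89.95, 56.95, 79.9 and 87.4 without Irf8 (0.33).

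The difference between the IRF8KO effects at the 2 ages was tested itself, in a model of 4 groups. It was called for 7 members, 6 lower and 1 higher at 9 months, against 24% of 15512 genes (5.92% lower and 18% higher). The median difference was -0.72 over members and 0.40 over all genes. Naglu had CPM values of 45.02, 73.9, 67.7 and 41.9 in WT libraries and of 53.8, 45.2, 77.6 and 67.7 in IRF8KO libraries at 3 months, overlapping fully, so that its fall at 9 months gave a difference of -2.68 (SE 0.517, adjusted p 0.00127). Man2b1 lay higher in every IRF8KO library at 3 months, with 514, 523, 685 and 648 CPM against 280, 310, 421 and 438 CPM in WT (0.71, not called), and had CPM values of 1160, 980 and 1005 in WT libraries and of 430, 239 and 223 in IRF8KO libraries at 9 months (difference -2.46, adjusted p 0.000574). Tpp1 differed by -1.78 (adjusted p 0.00261). Atp6v1a had CPM values of 80.4, 97.0, 157 and 135 in WT libraries and of 107, 114, 106 and 89.9 in IRF8KO libraries at 3 months, and its difference was 2.03 (adjusted p 0.00308). These 4 held under each alternative run. Lamp2 (-1.23, adjusted p 0.0273), Asah1 (-1.22, adjusted p 0.0476) and Tfe3 (-2.55, adjusted p 0.0431) were closer to the threshold and lost their calls when single libraries were left out (6, 12 and 11 of 14 libraries). Gla had a difference of 3.42 but an SE of 1.48 (adjusted p 0.102), with 0, 12.9, 4.27 and 18.1 CPM in the WT libraries and 5.33, 5.23, 4.23 and 1.70 CPM in those without Irf8 at 3 months.

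The WT levels at the 2 ages differed too. Naglu was at 57.1 ± 16.0 CPM in WT at 3 months (SD, n = 4) and 269 ± 28.5 CPM at 9 months (n = 3), each scaled within its own model. The 3-month WT libraries had homeostatic markers at 1.24% to 2.30% of gene counts and the 9-month WT libraries at 6.83% to 6.96%, and what part this had in the age differences was not tested.

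**Figure D3:**
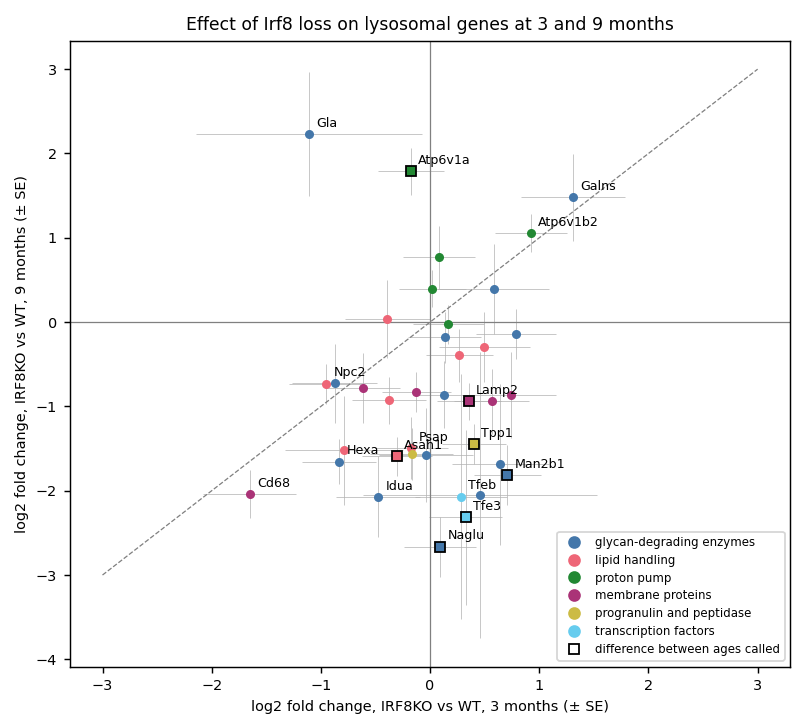
Log2 fold change of IRF8KO against WT at 3 months (x axis) and at 9 months (y axis) for the 37 members tested, with SE; colours mark classes, squares mark the 7 members whose difference between ages passed the test, and the dashed line marks equal effects. On the y axis 29 points lie below 0 and on the x axis 16 do; Cd68 is low on both, and Atp6v1a is at -0.18 at 3 months and 1.79 at 9 months.

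Batf3KO microglia were compared with the WT libraries of that experiment. Lysosomal genes differed little, with log2 fold changes from -0.49 to 0.27. Naglu and Gaa fell (2 of 37 members, against 3.83% of 13128 genes, 1.41% higher and 2.42% lower). Naglu CPM was 696, 676 and 549 in WT libraries and 419, 435 and 518 in Batf3KO libraries (-0.49, SE 0.103, adjusted p 0.0193, edgeR). Gaa CPM was 503, 445 and 443 in WT libraries and 351, 367 and 397 in Batf3KO libraries (-0.32, adjusted p 0.0453). Neither gene overlapped between the groups. In all, 10 members lay lower and 1 higher in every Batf3KO library, against 12.2% lower and 11.8% higher over all genes tested. Both calls were lost when WT replicate 1 or 2 or Batf3KO replicate 1 or 2 was omitted (-0.59 to -0.42 for Naglu and -0.37 to -0.25 for Gaa over all 6 omissions) and with a replicate block.

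The other genes followed by library were not called in Batf3KO. Cd68 CPM was 1987, 1940 and 1882 in WT libraries and 1766, 1778 and 1836 in Batf3KO libraries (-0.11), apart by a narrow gap. Lamp1 CPM was 1434, 1368 and 1414 in WT and 1325, 1400 and 1407 in Batf3KO (-0.03). Grn CPM was 5911, 5810 and 5095 in WT and 4826, 4625 and 5712 in Batf3KO (-0.15). Both of the latter overlapped between the groups. Atp6v0d1 CPM was 124, 114 and 111 in WT and 127, 119 and 133 in Batf3KO (0.12). Tfeb CPM was 101, 96.4 and 84.7 in WT and 92.1, 90.8 and 105 in Batf3KO (0.03). Tfe3 CPM was 348, 314 and 296 in WT and 299.9, 309 and 267 in Batf3KO (-0.13), again overlapping.

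In the conditional knockout no member was called between Cre and flox libraries (0% of 15512 genes by edgeR, with 1407 genes at an unadjusted p under 0.05, and no member by DESeq2). The library labelled Cre replicate 1 was lower in Cd68, Lamp1, Grn and Tfeb than the other Cre libraries. Cd68 CPM was 2492, 2154 and 2427 in flox and 2188, 3245, 3063 and 3637 in Cre replicates 1 to 4 (0.36). Tfeb CPM was 21.5, 18.6 and 12.5 in flox and 14.4, 42.96, 32.8 and 39.97 in Cre (0.89). For both, Cre replicate 1 lay within the flox range and the other 3 above it. Lamp1 CPM was 887, 784 and 859 in flox and 745, 1004, 831 and 1080 in Cre (0.12). Grn CPM was 2254, 1919 and 2258 in flox and 1815, 2686, 2091 and 3289 in Cre (0.20). These 2 overlapped, with the lowest value in Cre replicate 1. Atp6v0d1 CPM was 79.1, 80.95 and 75.02 in flox and 65.6, 79.0, 57.5 and 76.1 in Cre (-0.17). Tfe3 CPM was 93.5, 105 and 75.5 in flox and 75.05, 88.0, 76.2 and 70.7 in Cre (-0.24). When the library labelled Cre replicate 1, whose Irf8 went against its label, was left out, 4 members were called, all higher in Cre. They were Npc1 (0.81), Hexa (0.70), Psap (0.65) and Tfeb (1.13), among 952 genes called in all. The fit with that library kept tested 15512 genes, and the split of the 952 into higher and lower is not given here. Batf3 was low in flox and high in the other 3 Cre libraries, as given above. Whether these rises follow the deletion of Irf8 was not tested.

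The Cre effect minus the germline effect at 3 months was called for 2 members (7.04% of 17361 genes, 4.37% higher and 2.68% lower). Cd68 differed by 2.09 (SE 0.512, adjusted p 0.02), higher in 3 of 4 Cre libraries than in any flox library and lower in 4 of 4 germline IRF8KO libraries. Its call was lost without flox replicate 1, 2 or 3, where the difference ranged from 1.81 to 2.37 over all omissions, and with a replicate block. Without the library labelled Cre replicate 1 it was 2.23 (adjusted p 0.0168). Man2b1 differed by -1.10 (adjusted p 0.0498), with 1028, 911 and 939 CPM in flox and 731, 678, 677 and 669 CPM in Cre, and lost its call in 13 of 15 omissions, those of any library other than WT replicate 3 or 4 (-1.16 to -0.96; -1.12 without the library labelled Cre replicate 1). Hexa was next (1.46, adjusted p 0.0501). Batf3 differed by 8.75 in the same test (adjusted p 0.00147, edgeR), low in flox and in germline IRF8KO. Whether the differences of Cd68 and Man2b1 follow the deletion of Irf8 was not tested. The Cre and germline mice differ in the allele, the age at which Irf8 is lost, tamoxifen and the YFP sort, which cannot be told apart. Their libraries also differ in the sex-linked transcripts, with Xist alone in all 3 flox and 4 Cre libraries and in 0 of the 8 germline and WT libraries at 3 months, of which 7 held Y-linked transcripts.

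Of the 37 members tested, 14 were called in none of the 10 tests. Single tests called 0% to 28.3% of all genes, and the share of all genes called in none is not given here. The count of 14 is therefore only a description. The 14 members were 7 glycan-degrading enzymes (Glb1, Gusb, Sgsh, Ids, Neu1, Manba and Fuca1), the lipid genes Gm2a and Lipa, the pump genes Atp6v1h and Atp6ap1, the membrane proteins Cln3 and Mcoln1, and Tfeb. Several had high levels in 5xFAD. Fuca1, which removes fucose from glycoproteins, had CPM values of 182 ± 22.5, 392 ± 30.7, 110 ± 81.0 and 162 ± 77.3 at 9 months (SD, n = 3 each, in the order WT, 5xFAD, IRF8KO, 5xFAD/IRF8KO), and its change on the 5xFAD background was -1.28 (adjusted p 0.0616, edgeR). Gusb, the glucuronidase of glycosaminoglycans, was at 356 ± 22.4, 565 ± 75.4, 196 ± 119 and 278 ± 90.2 CPM in the same order. Gm2a was at 284 ± 21.5, 478 ± 34.3, 216 ± 106 and 270.3 ± 48.7 CPM. For these 3, each 5xFAD library lay above each WT library and above each 5xFAD/IRF8KO library, and the IRF8KO libraries were widely spread. Gm2a in IRF8KO, for example, was at 326, 209 and 114 CPM. Cln3, whose loss causes a juvenile form of neuronal ceroid lipofuscinosis, was at 103 ± 19.6, 171 ± 20.3, 53.5 ± 34.1 and 108 ± 20.9 CPM. Ids, the iduronate sulfatase, was lower in each 5xFAD library (56.9, 37.7 and 32.6 CPM) than in any WT library (127, 93.7 and 70.5 CPM), with a difference of -1.20 that was not called. Lipa, the acid lipase of cholesteryl esters, and Neu1, the sialidase, overlapped between WT and 5xFAD and between WT and IRF8KO.

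**Figure D4:**
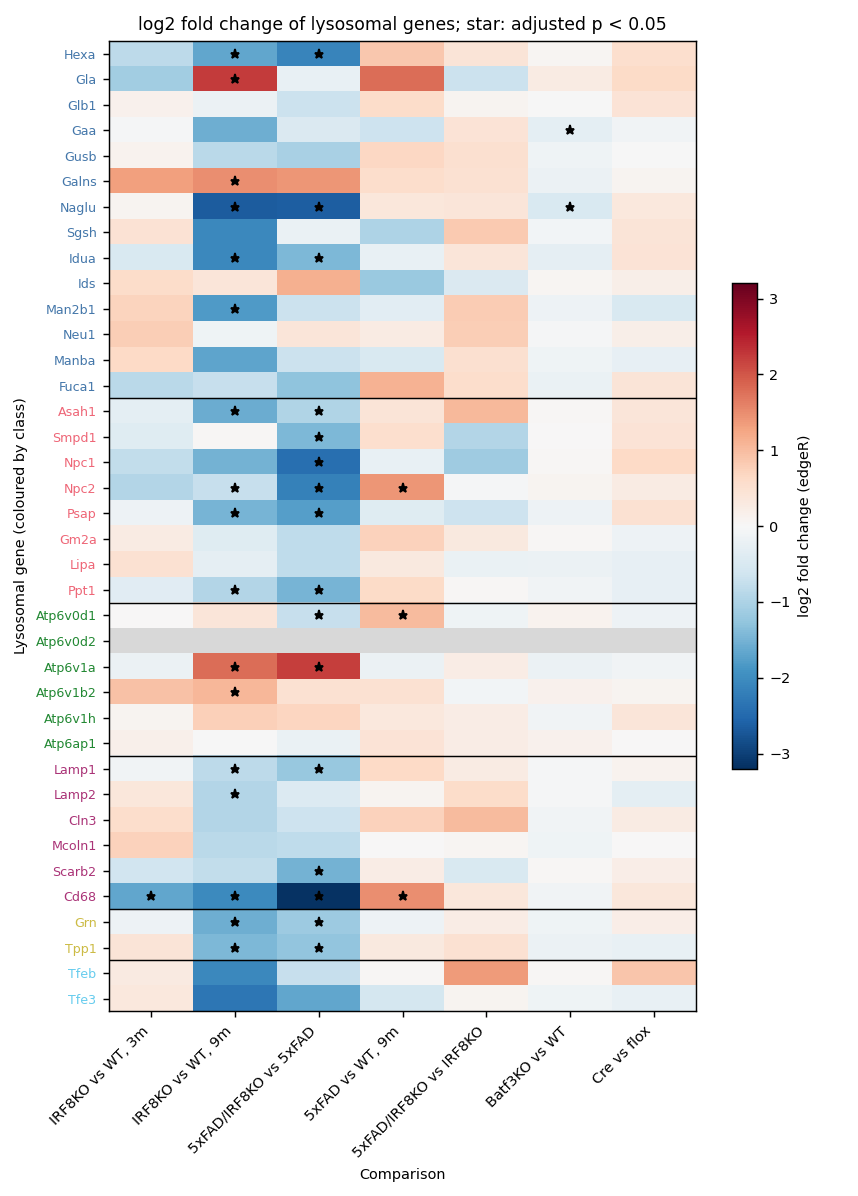
Log2 fold changes (colour) of the 38 lysosomal genes, grouped by class, in 7 comparisons; stars mark an adjusted p under 0.05 in edgeR's test and the grey row is Atp6v0d2, which was not tested. Both columns for Irf8 loss at 9 months are blue for most hydrolases, lipid and membrane genes and red for Atp6v1a, and the Batf3KO column stays between -0.49 and 0.27.

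Other lysosomal genes were read from the same tests by lists of 80 genes in all. The shares of all genes called in those tests were 28.3% at 9 months (8.68% lower and 19.6% higher), 27.8% on the 5xFAD background (9.72% lower and 18% higher), 1.99% in 5xFAD, 7.39% at 3 months and 3.83% in Batf3KO. Cathepsins and legumain, the lysosomal proteases left out of the main list, fell in 10 of 11 tested at 9 months and 11 of 11 on the 5xFAD background. Ctsh (-3.04) and Lgmn (-2.76) fell most at 9 months, and Ctsh (-3.89) and Ctsz (-3.23) on the 5xFAD background. They also fell at 3 months in 5 of 12 cases, led by Ctsh (-3.15) and Ctss (-2.02). In 5xFAD, Ctsl (1.29) and Ctsb (1.18) rose. In Batf3KO 4 of 11 fell, led by Ctsc (-0.89). Of 16 other hydrolases, 8 fell and 1 rose at 9 months, with Arsb (-3.10), an arylsulfatase, and Dnase2a (-2.996), the acid DNase, falling most and Acp5, an acid phosphatase of osteoclasts and macrophages, rising from 0 to 0.307 CPM in WT to 5.77 to 21.9 CPM in IRF8KO. On the 5xFAD background 9 of the 16 fell, among them Dnase2a (-3.34).

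The remaining V-ATPase subunits were divided, like those of the main list. At 9 months 5 of 12 rose, led by Atp6v1e1 (2.15) and Atp6v1d (1.42), both of the V1 sector, and 2 fell, Atp6v0a2 (-3.36) and Tcirg1 (-1.99), both a subunits of the membrane sector. In 5xFAD against WT 5 of 12 rose, led by Atp6v1f (1.65) and Atp6v0e (1.51). On the 5xFAD background 1 of 12 rose (Atp6v1e1, 0.85) and 5 fell, led by Tcirg1 (-2.89) and Atp6v0a2 (-1.58). Of the 12, Atp6v1f alone passed the test of interaction (-1.94). In Batf3KO at 3 months Atp6v1e1 rose (0.47) and Atp6v0a2 fell (-0.88), the same directions as at 9 months in IRF8KO. At 3 months neither was called in IRF8KO. There Atp6v1e1 had means of 267 CPM in WT and 237 CPM in IRF8KO, the other direction, and Atp6v0a2 78.1 and 37.4 CPM.

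Of 17 other lysosomal membrane proteins, 5 fell at 9 months, led by Clcn7 (-4.81), a chloride and proton exchanger, and Slc29a3 (-3.59), and 1 rose, Cd63 (1.74), a tetraspanin. Cd63 also rose in 5xFAD (2.20), and its interaction passed the test (-2.15). Among 14 regulators of the lysosome, 4 were called at 9 months (28.6%, against 28.3% of all genes). Rptor (-3.09) and Flcn (-1.48), which act in mTORC1 signalling at its surface, fell, and the Ragulator subunits Lamtor2 (1.28) and Lamtor4 (1.00) rose. Of 9 genes that sort enzymes by mannose 6-phosphate, 2 were called at 9 months (22.2%, also near the share of all genes), and both fell, the uncovering enzyme Nagpa (-1.86) and the receptor M6pr (-0.77). On the 5xFAD background Nagpa fell (-1.36) and Igf2r, the other receptor, was called higher (adjusted p 0.0498, edgeR), with 0 to 0.091 CPM in 5xFAD libraries and 0, 2.41 and 18.9 CPM in those of 5xFAD/IRF8KO. At 3 months 2 of the 80 rose, Tpcn2 (2.34) and Hgsnat (1.94). A further 6 fell, the 5 cathepsins given above and the V-ATPase subunit Atp6v1f (-1.30). None was called in the conditional knockout with the library labelled Cre replicate 1 kept. Ctsh was at 76.1 to 158 CPM in flox, 98.95 in Cre replicate 1 and 1696 to 2439 in Cre replicates 2 to 4. Atp6v0a2 had 15.7 to 17.4, 14.3 and 68.5 to 71.7 CPM in that order. Cd63 was lower in Cre replicates 2 to 4 (1092 to 1211 CPM) than in flox (2533 to 3244) or Cre replicate 1 (2696). These genes were chosen after their values were seen, and the split was not tested or counted over the 80.

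The promoter letters were set against the calls at 9 months. Of the called members with a window, both that rose (Gla and Atp6v1a) held TCACGTGA. None of the 12 that fell did, while 3 of 18 not called did. Galns and Atp6v1b2, which rose, and Asah1, which fell, have no window here. CACGTG was present in both that rose, in 2 of 12 that fell (Lamp1 and Naglu) and in 6 of 18 not called. The ETS and IRF site was present in 1 of 12 that fell (Cd68) and 1 of 18 not called (Scarb2), and both of these fell on the 5xFAD background. On that background TCACGTGA was present in 1 of 1 that rose (Atp6v1a), 1 of 13 that fell (Atp6v0d1) and 3 of 18 not called, among them Gla. The numbers are small and were not tested.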

How the data were processed

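Microglia were isolated without enzymes and sorted, and cDNA libraries were made with SMART-Seq v4 and Nextera XT and read as paired ends, per the labels' protocols, which name no molecular identifiers, so counting error is a lower limit of the technical error. The authors deposited whole-number counts per gene and library. The submitters' processing notes name STAR 2.5.2b, Picard 2.17.11, bcl2fastq, Subread, featureCounts and mm10. Which annotation was counted is not given in the sources used here. For each library the unstranded count column was used, in which reads of overlapping genes on opposite strands cannot be told apart; 10 of the 38 genes share exon sequence with another gene (Hexa, Glb1, Sgsh, Idua, Npc1, Ppt1, Atp6v1h, Lamp1, Cln3 and Grn). Reads assigned to genes were 47.3% to 78.6% of each library; the 4 summary lines of each file were left out. Of 54146 gene identifiers, 54079 were found in GENCODE M21 without regard to version.

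Counts were filtered with filterByExpr, scaled with TMM and tested with edgeR 4.0.16 (quasi-likelihood test, R 4.3.3) on all genes, with Benjamini-Hochberg adjustment and a threshold of 0.05. The 4 groups aged 9 months shared a model, as did the 4 groups of each difference between experiments; the other comparisons used their own groups. The members, the gene lists and the tests were chosen with earlier results of these data known. Values by library were given for up to 3 called members with the largest change in each direction and comparison, for members called at both ages, and for Cd68, Lamp1, Grn, Atp6v0d1, Atp6v0d2, Tfeb and Tfe3; the other called members were named with values, and up to 2 rises and 2 falls of each list of other lysosomal genes (1 result under this rule is not reported here). Hexa, Man2b1, Psap, Tpp1, Asah1, Ppt1, Smpd1, Lamp2, Atp6v1b2, Neu1 and the members named as not called outside this rule were chosen after their values were seen. Alternatives were DESeq2 1.42.0, RLE factors, no filter, a replicate block, all 33 libraries or only the compared groups in a model, marker genes of other cells left out, each library left out, and a term for Y-linked transcripts. The procedure was tested on simulated counts that held no shift in cell content, and the outcome is not given here. Tables and plots used Python 3.11.15, pandas 2.3.3 and matplotlib 3.10.9.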

Additional observations from a re-analysis of the deposited data

Results flagged for a closer look

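In WT and IRF8KO at 3 months and in Cre, 111 sets of 4 library values were tested, each of 1 gene in 1 group. In 2 sets a value lay far from the others relative to the range of the 4, where chance gives about 1 in 20. The sets share libraries. Gm2a, the ganglioside activator, was at 135.7 CPM in WT replicate 4 at 3 months, against 250 to 270 CPM in the other 3 WT libraries. Man2b1 was at 731.4 CPM in the library labelled Cre replicate 1, against 669 to 678 CPM in the other 3 Cre libraries.

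The IRF8KO effect differed between ages by the test of the difference itself for Naglu (-2.68), Man2b1 (-2.46), Asah1 (-1.22), Lamp2 (-1.23), Tpp1 (-1.78), Tfe3 (-2.55) and Atp6v1a (2.03), as log2 effect at 9 months minus that at 3 months. The Cre effect minus the germline effect at 3 months differed for Man2b1 (-1.10) and Cd68 (2.09).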

How the results depend on the processing

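Over the 37 members and 10 comparisons, 5735 values under an alternative were computed. None of the called values changed sign, 160 lost a call and 128 gained one. Of the calls made, 12 of 17 at 9 months, 10 of 16 on the 5xFAD background and 4 of 7 of the age differences held under every alternative, and none did in 5xFAD against WT (of 3), Batf3KO (of 2), IRF8KO at 3 months (of 1) or the Cre minus germline difference (of 2). Members called moved as follows, and the cause was not tested. In IRF8KO at 3 months (1) they were 3 with DESeq2, 0 with a replicate block and 7 with all 33 libraries in a model. In 5xFAD against WT (3) they were 1 with a replicate block, 19 with only those groups and 1 with the Y-linked term. On the 5xFAD background (16) they were 10 with the Y-linked term. In 5xFAD/IRF8KO against IRF8KO (0) they were 1 with DESeq2, 1 with no filter and 1 with all 33 libraries, and for the interaction (0) 2 with DESeq2 and 2 with all 33 libraries. In Batf3KO (2) they were 1 with RLE factors, 0 with a replicate block and 0 with all 33 libraries. In Cre against flox (0) there was 1 with no filter. For the age difference (7) there were 14 with all 33 libraries, and for the Cre minus germline difference (2) 4 with DESeq2, 0 with a replicate block and 4 with all 33 libraries.

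With 1 library left out, the count ranged from 0 to 3 in IRF8KO at 3 months, 12 to 21 in IRF8KO at 9 months, 0 to 1 in 5xFAD, 11 to 16 on the 5xFAD background, 0 to 1 in 5xFAD/IRF8KO against IRF8KO, 0 to 0 for the interaction, 0 to 3 in Batf3KO, 0 to 4 in Cre, 4 to 11 for the age difference and 0 to 7 for the Cre minus germline difference. The replicate numbers did not pair the libraries: deviations of same-numbered libraries correlated between -0.153 and 0.167, and in no pair of groups were all correlations over 0.1. RLE factors moved the median age difference over all genes from 0.40 to 0.57, and leaving out markers of other cells moved the median on the 5xFAD background from 0.24 to 0.12. The depth of WT replicate 3 at 9 months (605376 counts in genes) limits what that group shows for weakly expressed members such as Gla.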
